A study of Mus musculus with 12 samples.

Results

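Inhibitory interneurons are the local circuit neurons of the cortex that release gamma-aminobutyric acid (GABA), and 9 genes that mark them were followed in cortex RNA from mice that had drunk ethanol and from controls. The genes were the interneuron markers named for this report, picked by gene symbol, and all 9 were among the 33024 symbols of the count table. The series holds bulk RNA sequencing of the brain cortex of 12 wild-type C57BL/6 mice, 7 in the Control group and 5 in the EtOH group. The EtOH mice chose, from adolescence, between a bottle of diluted ethanol and a bottle of water in a binge-like drinking paradigm in the dark, and the Control mice (treatment Vehicle) received water in both bottles. By the study's text, the sequenced tissue came from animals that stayed abstinent after drinking and then went through behavioural tests, so the comparison asks what differed after ethanol had been withdrawn. No allele or transgene was carried by either group, and the sex of the mice is not given in the sources used here.

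Interneurons make GABA from glutamate with 2 glutamate decarboxylases, GAD67 from Gad1 and GAD65 from Gad2, and load it into vesicles with a transporter from Slc32a1. They arise in the medial ganglionic eminence, whose cells keep the transcription factor Lhx6 and become parvalbumin or somatostatin cells, or in the caudal ganglionic eminence, whose cells carry the serotonin receptor subunit Htr3a and include calretinin (Calb2), reelin (Reln) and Lamp5 cells. Neuronal nitric oxide synthase, from Nos1, marks a sparse long-range class and some neurogliaform cells. None of these genes is limited to cortical interneurons. The spiny projection neurons of the striatum are GABAergic too, calretinin is abundant in the olfactory bulb, reelin is made by Cajal-Retzius cells, Lamp5 is also found in superficial excitatory neurons, and Nos1 is widespread in the forebrain.

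The regions just before the transcription start of 4 members are shown because they belong to the GABA-synthesis genes and to the members that rose. They are 250 bases of GRCm39 before the start of the canonical GENCODE transcript, on the strand of the gene and 5′ to 3′, with every match to a GC box (GGGCGG on either strand) in capitals. The Gad1 and Nos1 windows lie inside the annotated spans of these genes, which begin at 70383416 and 117918971. For these genes the window thus precedes the canonical start and not the first annotated base.
Gad1 (chr2:70391353-70391602, plus strand): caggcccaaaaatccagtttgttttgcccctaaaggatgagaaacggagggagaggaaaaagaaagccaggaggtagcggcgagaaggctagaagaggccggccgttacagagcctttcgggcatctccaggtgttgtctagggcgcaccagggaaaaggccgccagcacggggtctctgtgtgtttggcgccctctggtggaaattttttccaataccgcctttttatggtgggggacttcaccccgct
Gad2 (chr2:22511612-22511861, plus strand): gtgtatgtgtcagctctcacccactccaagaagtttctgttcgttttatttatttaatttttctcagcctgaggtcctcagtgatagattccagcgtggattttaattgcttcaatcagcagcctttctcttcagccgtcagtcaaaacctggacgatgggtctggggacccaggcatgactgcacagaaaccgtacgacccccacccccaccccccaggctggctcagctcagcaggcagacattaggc
Reln (chr5:22549701-22549950, minus strand): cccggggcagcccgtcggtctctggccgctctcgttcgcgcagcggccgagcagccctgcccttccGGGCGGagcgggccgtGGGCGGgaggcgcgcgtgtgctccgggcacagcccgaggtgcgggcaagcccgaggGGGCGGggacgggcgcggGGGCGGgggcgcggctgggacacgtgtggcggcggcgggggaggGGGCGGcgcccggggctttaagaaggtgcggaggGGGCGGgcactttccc
Nos1 (chr5:117979585-117979834, plus strand): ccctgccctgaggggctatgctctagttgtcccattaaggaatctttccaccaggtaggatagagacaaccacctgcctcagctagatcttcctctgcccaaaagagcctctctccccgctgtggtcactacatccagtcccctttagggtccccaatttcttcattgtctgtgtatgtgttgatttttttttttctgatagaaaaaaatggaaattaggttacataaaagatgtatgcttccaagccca
The members that rose had unlike sequences here. The Reln window was 80.8% G and C, a value exceeded in 0.404% of 21770 protein-coding genes, and held 6 GC boxes that did not overlap. The Nos1 window was 45.2% G and C and held none, and the median over all genes was 53.2%. A GC box stood in 36.3% of all windows and in 3 of the 9 member windows. A TATA box (TATAAA, 11.9% of all windows), a cyclic AMP response element (TGACGTCA, 1.69%) and the homeodomain core TAATTA (5.18%), each searched on both strands, stood in 0 of the 9.

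Total counts lay between 31768076 and 42183029 per mouse, at which 3 counts, taken as the floor, are at most 0.0944 CPM (counts per 1000000 counts of the library; TMM scaling changed these by little, with factors of 0.982 to 1.02). Cortical excitatory markers were present in both groups. Slc17a7, the vesicular glutamate transporter of cortical excitatory neurons, had 1955 ± 144 CPM (SD, n = 7) in the Control and 1906 ± 223 CPM (SD, n = 5) in the EtOH mice. Of the 9 genes of that list 1 was called, Fezf2, a factor of deep-layer projection neurons, which rose by 0.60 on the log2 scale, and without a minimum fold change 4 were higher and 1 lower. Of 10 pan-neuronal genes 0 were called by edgeR, DESeq2 or limma voom, but 5 were lower and 1 higher at an adjusted p under 0.05 with no minimum fold change (7 and 2 at an unadjusted p under 0.05), and the groups did not overlap for 3 of them. Markers of neighbouring regions and of other cell types differed, and their part in the results below was not tested. The summed level of 13 markers of striatal spiny neurons was 1004 to 2397 CPM in the Control and 248 to 315 CPM in the EtOH mice. For 4 markers of striatal cholinergic neurons, all called lower, it was 7.76 to 24.6 CPM against 0.835 to 1.74 CPM, with Lhx8 at 0 in every EtOH mouse. For 8 hippocampal markers it was 100.5 to 127 CPM against 241 to 342 CPM, with the broadly expressed gene Ccn3 the largest part of it in both groups. For 5 olfactory bulb markers it was 13.8 to 75.7 CPM against 8.79 to 9.62 CPM, and for 5 choroid plexus markers 7.41 to 21.0 CPM against 10.8 to 985 CPM. Values given below without Control mice 2 and 4 (over 50 CPM of olfactory bulb markers) or without EtOH mice 1, 3 and 4 (over 100 CPM of choroid plexus markers, leaving 7 against 2 mice) use limits chosen after seeing the data. For 5 thalamic markers the sum was at most 39.1 CPM in the Control and 41.4 to 59.1 CPM in the EtOH mice. Only Slc17a6 among them was called, higher by 1.08 on the log2 scale, with means of 14.6 and 30.9 CPM. Tcf7l2 (-0.14), Lef1 (0.26) and Prkcd (-0.21) were not called, and Gbx2, at low level, was not tested. Of 4 endothelial markers Ly6c1 was called lower (-0.64), while Cldn5 (-0.15), Pecam1 (-0.10) and Flt1 (0.10) were not called. Endothelial sums overlapped, at 138 to 158 CPM in the Control and 130 to 147 CPM in the EtOH mice. Glial markers differed as well. Astrocyte sums were 791 to 889 CPM against 960 to 1063 CPM, with Gfap called higher, and microglial sums 248 to 273 CPM against 222 to 245 CPM, with no gene called by edgeR, DESeq2 or limma voom (4 lower at an unadjusted p under 0.05 in edgeR). Oligodendrocyte sums were 4285 to 5703 CPM in the Control mice and 3221, 5139, 3174, 2872 and 3576 CPM in the EtOH mice, with Mbp and Mobp called lower, and EtOH mouse 2 alone of its group lay in the Control range. Since the striatal and hippocampal sums did not overlap between the groups, the drinking and the regional marker content cannot be told apart by any mouse of this series. In bulk tissue, fewer cells of a type and less RNA per cell cannot be told apart either.

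All 9 members passed the filter on low counts. Relative to the Control mice, Nos1 and Reln rose, Gad2 and Lamp5 fell, and the other 5 members did not pass. A gene was called when edgeR's quasi-likelihood test gave a Benjamini-Hochberg adjusted p under 0.05 and its log2 fold change exceeded 0.5 in size. Of all 16059 genes tested, 8.29% were called by this rule, 4.2% as higher (674 genes) and 4.09% as lower (657 genes). Scaling to 10 pan-neuronal genes in place of TMM gave 1117 higher and 494 lower, and with it Lamp5, at -0.39 on the log2 scale, was not called and Htr3a, at 0.51, was. Without a minimum fold change 3 members were higher and 3 lower, where 23.7% of all genes had an adjusted p under 0.05. The groups did not overlap for 4 members, Gad1, Gad2, Lamp5 and Nos1, and for 9.81% of all genes. The median log2 fold change of the members was -0.31, against a median near 0 (7.21e-05) over all genes tested.

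**Figure D1:**
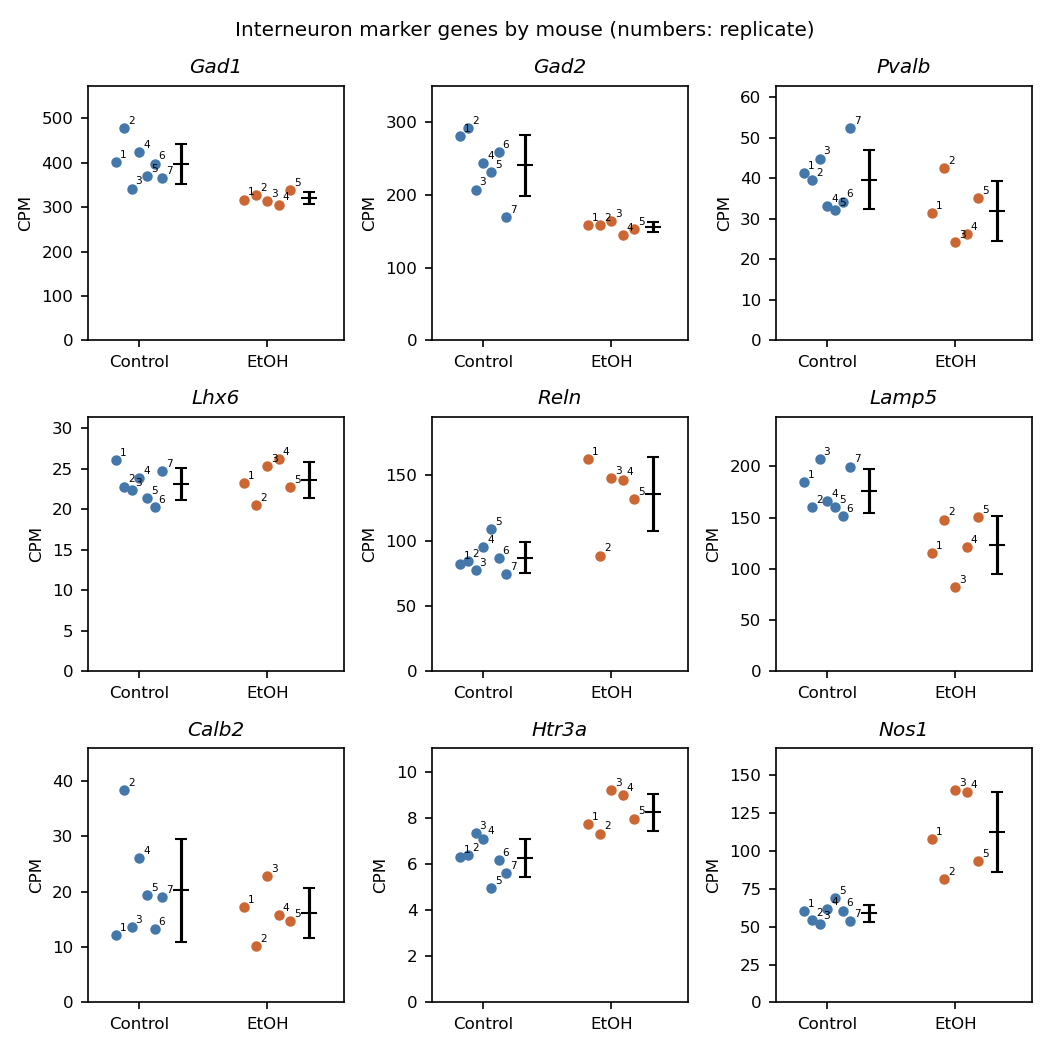
Level of each member gene in CPM on the vertical axis, with 1 point for each mouse of the Control (blue, n = 7) and EtOH (orange, n = 5) groups, numbered by replicate, and bars for the mean ± SD. The Gad1, Gad2 and Lamp5 points of the EtOH mice lie below all Control points, those of Nos1 lie above, and Calb2 has the widest spread among the Control mice relative to its mean, from 12.1 to 38.3 CPM.

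Of the GABA-synthesis genes, Gad2 fell in the EtOH mice and Gad1 was not called. Gad2 (chromosome 2 of GRCm39, 22511862 to 22583886) had between 169.8 and 292 CPM in the Control mice, with a median of 245 CPM. In the EtOH mice it had 158.3, 158.2, 163.8, 144.8 and 154 CPM in replicates 1 to 5. Every EtOH mouse lay below every Control mouse, and Control mouse 7 stood nearest to them. Gad2 fell by 0.63 on the log2 scale with a standard error of 0.10 (edgeR adjusted p = 0.000288), to 0.647 of the Control level, and it kept its call in 12 of 12 fits that left out a mouse.

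Gad1 (chromosome 2, 70383416 to 70432372) ranged from 342 to 478 CPM in the Control mice, with a median of 398 CPM. In the EtOH mice Gad1 had 317, 327, 314, 306 and 339 CPM. These groups did not overlap either, but the change of -0.31 on the log2 scale, with a standard error of 0.07 and a 95% interval of -0.46 to -0.16 (edgeR adjusted p = 0.00397), stayed below the minimum of 0.5 in size, so Gad1 was not called. Scaled to the pan-neuronal genes it was -0.20 (edgeR adjusted p = 0.0749). Within a library, the log2 ratio of Gad2 to Gad1 was -0.74 ± 0.18 (SD, n = 7) in the Control and -1.04 ± 0.08 (SD, n = 5) in the EtOH mice, and Control mouse 7, at -1.11, fell among the latter. The log2 ratio of Gad1 to the excitatory marker Slc17a7 was -2.30 ± 0.24 (SD, n = 7) against -2.56 ± 0.20 (SD, n = 5), with overlapping ranges. These ratios were not tested.

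Striatal spiny markers moved with Gad2, also among the Control mice alone. Across the 7 Control mice, log2 CPM of Gad2 and the mean log2 CPM of the spiny list correlated with Pearson's r = 0.95 (p = 0.00159 by a two-sided exact permutation test, 0.0143 after Benjamini-Hochberg adjustment over the 9 members) and Spearman's rho = 0.93 (exact permutation p = 0.00675, adjusted 0.0607). Leaving out the 2 mice farthest from the median of the list gave r = 0.80 over 5 mice. The correlation passed for 1 of the 9 members, and for 0 when Control mouse 2, 4 or 7 was left out. Leaving out each of the 7 Control mice in turn gave r for Gad2 between 0.87 and 0.97. For Gad1, r was 0.73 (exact permutation p = 0.0665, adjusted 0.299) and rho 0.75 (exact permutation p = 0.0663, adjusted 0.298), and without the farthest 2 mice r was 0.78. All 13 spiny markers were called lower in the EtOH mice, with log2 fold changes from -5.28 to -1.62, and Drd2, the dopamine D2 receptor of indirect-pathway spiny neurons, had 64.8 ± 19.8 CPM (SD, n = 7) against 2.06 ± 0.664 CPM (SD, n = 5). For the other 7 members r lay between -0.63 for Lamp5 and 0.39 for Htr3a, the smallest of their exact permutation p-values was 0.117 (adjusted 0.352), rho lay between -0.64 and 0.36 (smallest exact permutation p = 0.139, adjusted 0.417), and without the farthest 2 mice r lay between -0.39 and 0.27.

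**Figure D2:**
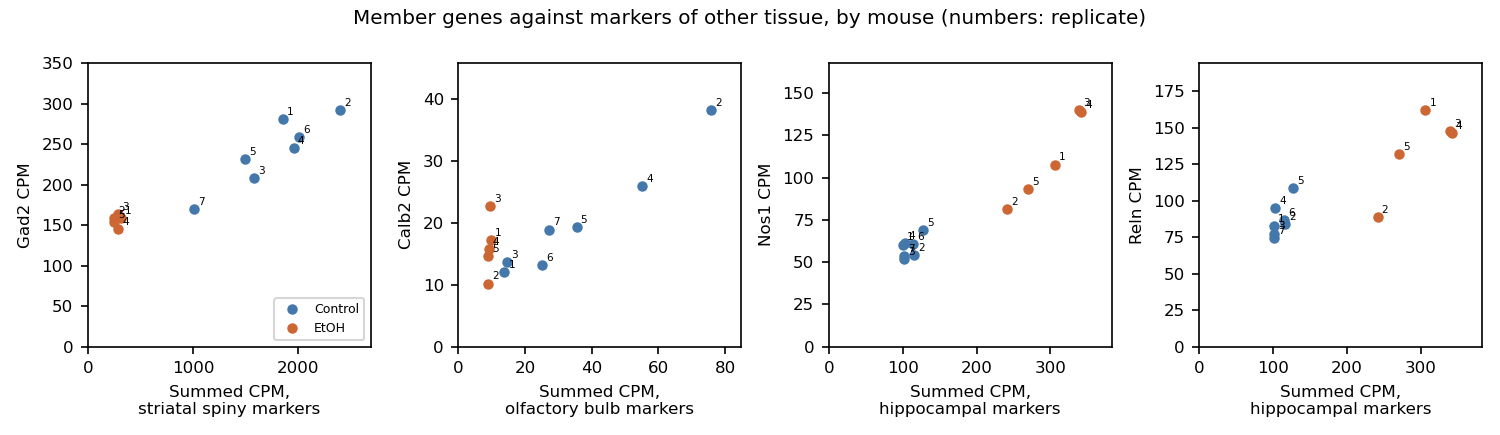
CPM of Gad2, Calb2, Nos1 and Reln on the vertical axes against the summed CPM of a marker list on the horizontal axes, with 1 numbered point for each Control (blue) and EtOH (orange) mouse. Control mouse 7 has the lowest spiny marker sum (1004 CPM) and the lowest Gad2 (169.8 CPM) of its group, Control mouse 2 has the highest olfactory bulb sum (75.7 CPM) and the highest Calb2 (38.3 CPM), and EtOH mouse 2 has the lowest hippocampal sum (241 CPM) and the lowest Nos1 (81.5 CPM) of its group, although single markers in that sum order the EtOH mice differently.

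Lhx6 and Pvalb, which mark cells of the medial eminence lineage, were not called. Lhx6 (chromosome 2, 35971964 to 35995601), the transcription factor that these cells keep for life, ranged from 20.2 to 26.1 CPM with a median of 22.8 CPM in the Control mice, and had 23.2, 20.6, 25.4, 26.2 and 22.8 CPM in the EtOH mice. Its log2 fold change was 0.03, with a standard error of 0.08 and a 95% interval from -0.12 to 0.19 (edgeR adjusted p = 0.776). The groups covered nearly the same range, and the interval reached neither a log2 difference of 0.5 up nor down.

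Pvalb (chromosome 15, 78075314 to 78091149) encodes parvalbumin, the calcium-buffering protein of fast-spiking cells. It ranged from 32.1 to 52.3 CPM with a median of 39.5 CPM in the Control mice and had 31.4, 42.5, 24.3, 26.2 and 35.1 CPM in the EtOH mice. EtOH mice 1, 3 and 4 lay below every Control mouse and mice 2 and 5 among them. The log2 fold change was -0.31 with a standard error of 0.14 (95% interval -0.60 to -0.02, edgeR adjusted p = 0.106). Over the fits that left out a mouse it ranged from -0.44 without EtOH mouse 2 (edgeR adjusted p = 0.0201) to -0.23 without EtOH mouse 3 (edgeR adjusted p = 0.254), and Pvalb was called in 0 of 12 of these by edgeR. Over all 22 alternatives the log2 fold change of Pvalb ranged from -0.44 to -0.04, with no call.

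Of the members linked to the caudal eminence, Reln rose, Lamp5 fell, and Htr3a and Calb2 were not called. Reln (chromosome 5, 22089452 to 22549700) encodes reelin, a secreted glycoprotein that guides neuronal layering and modulates synapses in the adult. It ranged from 74.5 to 108.9 CPM with a median of 84.0 CPM in the Control mice, and had 162, 88.5, 148, 147 and 132 CPM in the EtOH mice. EtOH mouse 2, which was also the one within the Control range of oligodendrocyte markers, lay within the Control range and the other 4 lay above it. Reln rose by 0.64 on the log2 scale, with a standard error of 0.12 (edgeR adjusted p = 0.000917), and by 0.75 without EtOH mouse 2 and 0.57 without EtOH mouse 1. Without EtOH mice 1, 3 and 4 it was 0.34 and lost its call (edgeR adjusted p = 0.163), but these 3 mice had the most Reln of the EtOH group, so a smaller rise follows from leaving them out. Trp73, a defining marker of Cajal-Retzius cells, had 1.15 ± 0.321 CPM (SD, n = 7) in the Control and 1.66 ± 0.522 CPM (SD, n = 5) in the EtOH mice. This difference of 0.52 on the log2 scale did not pass (edgeR adjusted p = 0.115, unadjusted p = 0.0394). The 4 Cajal-Retzius markers summed to 1.70 to 2.59 CPM in the Control and 2.10 to 3.07 CPM in the EtOH mice. Of the others, Ebf3 differed by 0.05 on the log2 scale (edgeR adjusted p = 0.899). Lhx1 and Lhx5, with means of at most 0.0963 CPM in either group, failed the filter on low counts and were not tested.

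Lamp5 (chromosome 2, 135894159 to 135911924) encodes a lysosome-associated membrane protein of the brain and marks neurogliaform cells. It ranged from 151.7 to 207 CPM with a median of 166 CPM in the Control mice, and had 115.6, 148, 82.0, 121 and 150.5 CPM in the EtOH mice. All EtOH mice lay below all Control mice, the highest of them by little, and mouse 3 was lowest. Lamp5 fell by 0.51 on the log2 scale with a standard error of 0.12 (edgeR adjusted p = 0.00608), just past the minimum. It kept its call in 7 of 12 fits that left out a mouse, and the log2 fold change was -0.50 without Control mouse 1, -0.47 without Control mouse 3, -0.48 without Control mouse 7, -0.48 without EtOH mouse 1 and -0.39 without EtOH mouse 3. Without EtOH mice 1, 3 and 4 it was -0.24 (edgeR adjusted p = 0.201), but these are the 3 EtOH mice with the least Lamp5, so a smaller difference follows from leaving them out.

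Htr3a (chromosome 9, 48810512 to 48822686) encodes a subunit of the ion channel receptor for serotonin. It was the least abundant member, at 4.96 to 7.32 CPM (median 6.29 CPM) in the Control mice and 7.72, 7.31, 9.18, 8.98 and 7.96 CPM in the EtOH mice. Of these, 4 of 5 lay above every Control mouse, and mouse 2 lay just below the highest of them. The log2 fold change was 0.40 with a standard error of 0.10 (95% interval 0.18 to 0.62, edgeR adjusted p = 0.0110), below the minimum fold change. The interval thus held values on both sides of 0.5.

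Calb2 (chromosome 8, 110864128 to 110894881) encodes calretinin, a calcium-binding protein. Its Control values were 12.1, 38.3, 13.6, 26.0, 19.3, 13.2 and 19.0 CPM in replicates 1 to 7, the widest relative spread of any member. In the EtOH mice it had 17.2, 10.2, 22.8, 15.8 and 14.7 CPM. The groups overlapped, with a log2 fold change of -0.32 with a standard error of 0.25 (95% interval -0.85 to 0.20, edgeR adjusted p = 0.372). Over the 12 fits that left out a mouse it ranged from -0.48 to -0.09 and was called in 0. Over all 22 alternatives it ranged from -0.71 to 0.06. Control mice 2 and 4, which had the most Calb2, also had the highest olfactory bulb marker sums (75.7 and 55.0 CPM), among them Eomes, a transcription factor of olfactory bulb projection neurons, at 7.87 and 5.69 CPM against 0.0910 to 0.278 CPM in the EtOH mice. Without these 2 mice the log2 fold change of Calb2 was 0.06 (edgeR adjusted p = 0.856). Since they held the highest Calb2 of their group, leaving them out had to raise this value, and it bears on no source of the RNA. In the same fit the numbers of members called higher and lower stayed at 2 and 2.

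Nos1 (chromosome 5, 117918971 to 118096905) had the largest change of the 9 members. It ranged from 52.0 to 68.8 CPM with a median of 60.4 CPM in the Control mice, and had 108, 81.5, 140, 139 and 93.1 CPM in the EtOH mice. Every EtOH mouse lay above every Control mouse, and mice 3 and 4 were highest. Nos1 rose by 0.93 on the log2 scale, with a standard error of 0.12 (edgeR adjusted p = 1.67e-05), to 1.91 times the Control level, and kept its call in 12 of 12 fits that left out a mouse. The hippocampal marker sums of EtOH mice 1 to 5 were 306, 241, 339, 342 and 270 CPM, so mouse 2, with the least Nos1, also had the lowest sum. That order was set by Ccn3 (184, 109, 209, 213 and 166 CPM) and Fibcd1 (60.2, 51.4, 89.2, 102 and 61.7 CPM). C1ql2, a marker of dentate granule cells, had 25.0, 27.9, 14.8, 9.71 and 18.1 CPM and was highest in mouse 2, as were Dsp and Lct, and all of these were lowest in mouse 4, which had nearly the most Nos1. Without EtOH mice 1, 3 and 4, which had the most Nos1 of their group, it remained called, at 0.56 on the log2 scale (edgeR adjusted p = 0.00195). All 8 hippocampal markers were called higher, with log2 fold changes from 0.92 to 4.97.

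**Figure D3:**
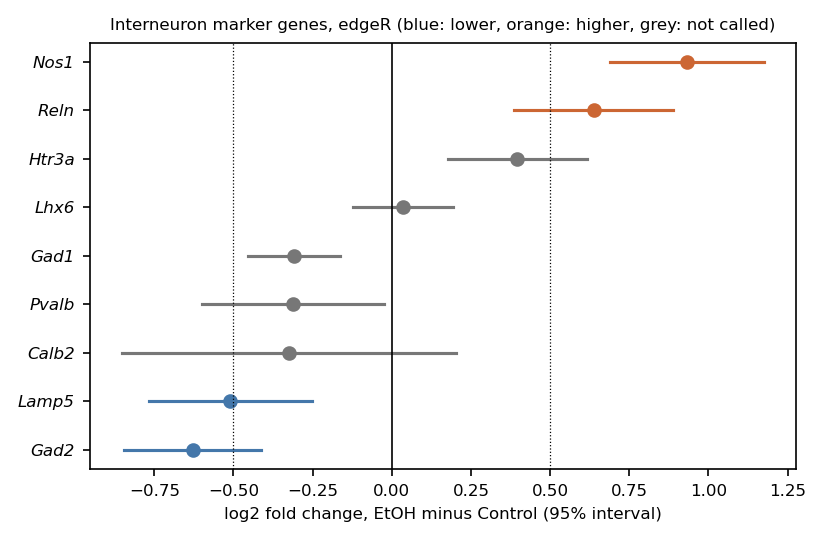
Log2 fold change of each member (EtOH minus Control, horizontal axis), with its 95% interval from edgeR's quasi-likelihood test and dotted lines at the minimum of 0.5 in size. Nos1 and Reln are called higher (orange), Gad2 and Lamp5 lower (blue), and the interval of Calb2 is the widest, from -0.85 to 0.20.

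Levels were compared between genes per kilobase of exon (CPM divided by the length of all annotated exons). This length covers every annotated transcript of a gene, and which of them the cortex expresses was not tested. The order of genes therefore depends on it. On this scale Lamp5 was highest in both groups, at 51.1 ± 6.25 (SD, n = 7) in the Control and 35.9 ± 8.13 (SD, n = 5) in the EtOH mice. It was followed by Gad1, at 38.1 ± 4.29 and 30.8 ± 1.23, and by Gad2, at 36.9 ± 6.50 and 23.9 ± 1.09. The ranges of Gad1 and Gad2 overlapped in the Control mice, where 5 of 7 had more Gad1, and were apart in the EtOH mice. The ranges of Lamp5 and Gad1 overlapped in both groups.

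Below these genes lay a step to Calb2 and Pvalb, at 10.7 ± 4.91 and 10.6 ± 1.95 per kilobase in the Control mice, which were not ordered beyond their spread. Nos1 came next in the Control mice at 5.17 ± 0.513 (SD, n = 7), where 6 of 7 had more Nos1 than Lhx6 and these ranges overlapped. In the EtOH mice Nos1 moved up past Calb2 and Pvalb, at 9.88 ± 2.33 (SD, n = 5). Its range there overlapped those of Pvalb at 8.56 ± 1.96 and Calb2 at 8.50 ± 2.40. Lhx6 had 4.49 ± 0.386 and 4.60 ± 0.432, and Reln 3.66 ± 0.493 and 5.70 ± 1.19, with overlapping ranges in each group. Htr3a was lowest in both, at 2.62 ± 0.340 and 3.45 ± 0.341, and its range lay below that of its neighbour in each group.

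**Figure D4:**
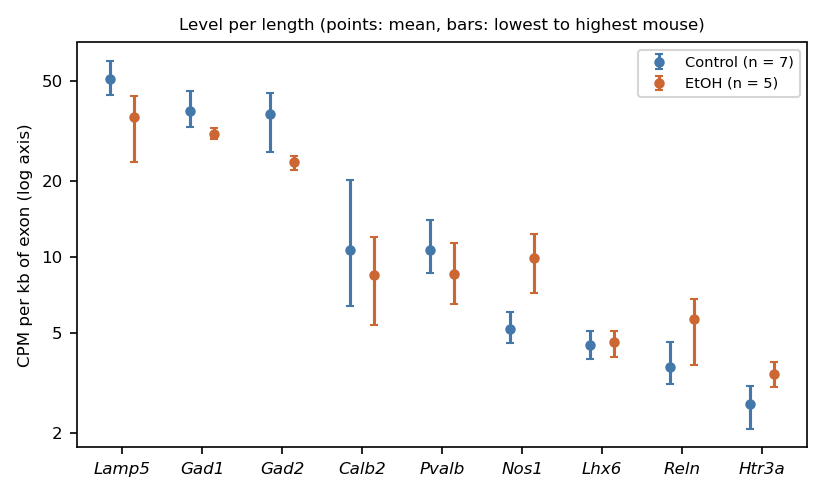
Level per length of each member on a log axis (CPM per kilobase of exon), with points for the mean and bars from the lowest to the highest mouse of the Control (blue) and EtOH (orange) groups. Lamp5, Gad1 and Gad2 lie above the other members in both groups, and Nos1 moves from below Calb2 and Pvalb to above them.

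Among 6 genes of GABA transport and breakdown, the vesicular transporter fell and the other 5 were not called. Slc32a1, which is used by all GABAergic and glycinergic neurons, had between 92.3 and 155 CPM (median 130.2 CPM) in the Control mice and 74.1, 72.4, 70.4, 77.6 and 73.4 CPM in the EtOH mice. The groups did not overlap, and Slc32a1 fell by 0.77 on the log2 scale with a standard error of 0.09 (edgeR adjusted p = 1.16e-05). Its log2 ratio to Gad1 was -1.67 ± 0.15 (SD, n = 7) in the Control and -2.12 ± 0.09 (SD, n = 5) in the EtOH mice. The plasma membrane transporters Slc6a11 and Slc6a13 and the breakdown enzymes Abat and Aldh5a1 had log2 fold changes between -0.13 and 0.10, with edgeR adjusted p-values from 0.157 to 0.764. None of the 6 was called higher by edgeR, where 0 had an unadjusted p under 0.05 and a positive fold change, or by DESeq2 or limma voom.

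Of 14 transcription factors of the interneuron lineage, 5 fell and 3 rose, where 4.09% of all genes tested were called lower and 4.2% higher. Those that fell were the distal-less factors Dlx2, Dlx5 and Dlx6, with log2 fold changes of -0.59, -1.10 and -1.46, the zinc finger factor Sp9 (-1.13) and Nkx2-1 (-1.99), the factor that specifies the medial eminence. Dlx6 had 10.8 ± 2.38 CPM (SD, n = 7) in the Control and 3.91 ± 0.177 CPM (SD, n = 5) in the EtOH mice. Dlx2 lost its call without EtOH mouse 1 (log2 fold change -0.50). Nkx2-1 was near the floor in the EtOH mice, at 0.0927 to 0.485 CPM. Scaling to pan-neuronal genes, or testing only genes with at least 10 counts in every mouse, left 4 factors called lower. Dlx5, Dlx6 and Sp9 are also expressed in striatal neurons and Nkx2-1 in striatal cholinergic ones, and in the same EtOH mice the spiny marker sums stood at 248 to 315 CPM and the cholinergic sums at 0.835 to 1.74 CPM.

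The factors that rose were Nr2f2 and Prox1, which act in the caudal eminence lineage, and Satb1, which acts in the medial one. Their log2 fold changes were 1.65, 1.29 and 0.74. Prox1, which also defines dentate granule cells of the hippocampus, had 16.9 ± 2.26 CPM (SD, n = 7) in the Control and 47.1, 59.3, 40.6, 20.9 and 38.2 CPM in the EtOH mice. Nr2f2 had 10.3 to 14.0 CPM in the Control and 37.1, 14.7, 63.1, 45.1 and 28.5 CPM in the EtOH mice, all above the highest Control mouse. Without EtOH mice 1, 3 and 4 its log2 fold change was 0.84 (edgeR adjusted p = 0.00808), and these are the 3 EtOH mice with the most Nr2f2, so a smaller value had to follow. The pan-interneuron factor Dlx1 differed by -0.22 on the log2 scale (edgeR adjusted p = 0.0935), and an antisense gene covers 60.2% of the exon bases of Dlx1. Sox6, a factor of the medial eminence lineage, missed only the minimum fold change (log2 fold change 0.28, edgeR adjusted p = 0.00552), with 4 of 5 EtOH mice above every Control mouse. Maf (0.03, edgeR adjusted p = 0.784) and Npas1 (0.23, edgeR adjusted p = 0.0908) were not called either.

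Among 30 further class markers, 3 were called lower and 2 higher, beside 4.09% and 4.2% of all genes tested. Of 10 parvalbumin class genes 1 fell, Tac1, the precursor of substance P, which is also made by direct-pathway spiny neurons. Its level was 64.5 ± 21.5 CPM (SD, n = 7) in the Control and 8.72 ± 1.05 CPM (SD, n = 5) in the EtOH mice. The difference was -2.89 on the log2 scale with a standard error of 0.21 (edgeR adjusted p = 5.98e-08). The other 9, among them the fast potassium channel genes Kcnc1 and Kcnc2 (0.20 each) and the synaptotagmin gene Syt2 (0.04), had log2 fold changes between -0.25 and 0.40. None was called higher by edgeR, DESeq2 or limma voom, while 3 (Kcnc1, Kcnc2 and the neuregulin receptor gene Erbb4) had a positive fold change at an unadjusted p under 0.05 in edgeR. The adjusted p was under 0.05 for the same 3, so they missed only the minimum fold change, and for Erbb4 (log2 fold change 0.40) the groups did not overlap.

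Of 7 somatostatin class genes, Npy, which encodes neuropeptide Y, had 87.2 ± 12.6 CPM (SD, n = 7) in the Control and 51.0 ± 8.92 CPM (SD, n = 5) in the EtOH mice and fell by 0.77 on the log2 scale. Sst itself, the somatostatin gene, had 214 ± 31.2 CPM (SD, n = 7) and 182 ± 21.9 CPM (SD, n = 5), and differed by -0.23 on the log2 scale (edgeR adjusted p = 0.0943). None of the 7 was called higher by edgeR, DESeq2 or limma voom, and 2 (Crhbp and Elfn1) had a positive fold change at an unadjusted and an adjusted p under 0.05 in edgeR but missed the minimum fold change. Of 13 caudal eminence class genes, the receptor kinase gene Kit had 40.3 ± 3.14 CPM (SD, n = 7) in the Control and 86.5 ± 15.5 CPM (SD, n = 5) in the EtOH mice and rose by 1.10 on the log2 scale.

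The keratin gene Krt73 rose at low level (1.02 ± 0.339 CPM, SD, n = 7, to 2.39 ± 1.07 CPM, SD, n = 5), and Crh, which encodes corticotropin-releasing hormone, fell by 0.83 on the log2 scale. Without EtOH mice 1, 3 and 4, which had the lowest Crh of the EtOH group and among which mice 3 and 4 had the highest Krt73, neither was called (log2 fold changes 0.62 and -0.54), and smaller changes follow largely from that choice of mice. The neuropeptide gene Cck and the chemokine gene Cxcl14 (log2 fold changes of -0.39 each, edgeR adjusted p = 0.00117 and 0.000881) missed only the minimum fold change, with every EtOH mouse below every Control mouse, and so did Adarb2 (0.43, edgeR adjusted p = 0.00675) and Cplx3 (0.29, edgeR adjusted p = 0.0100), whose groups overlapped. Vip, the gene for vasoactive intestinal peptide, differed by -0.21 on the log2 scale (edgeR adjusted p = 0.120). The median log2 fold change of the 30 class markers was -0.06.

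**Figure D5:**
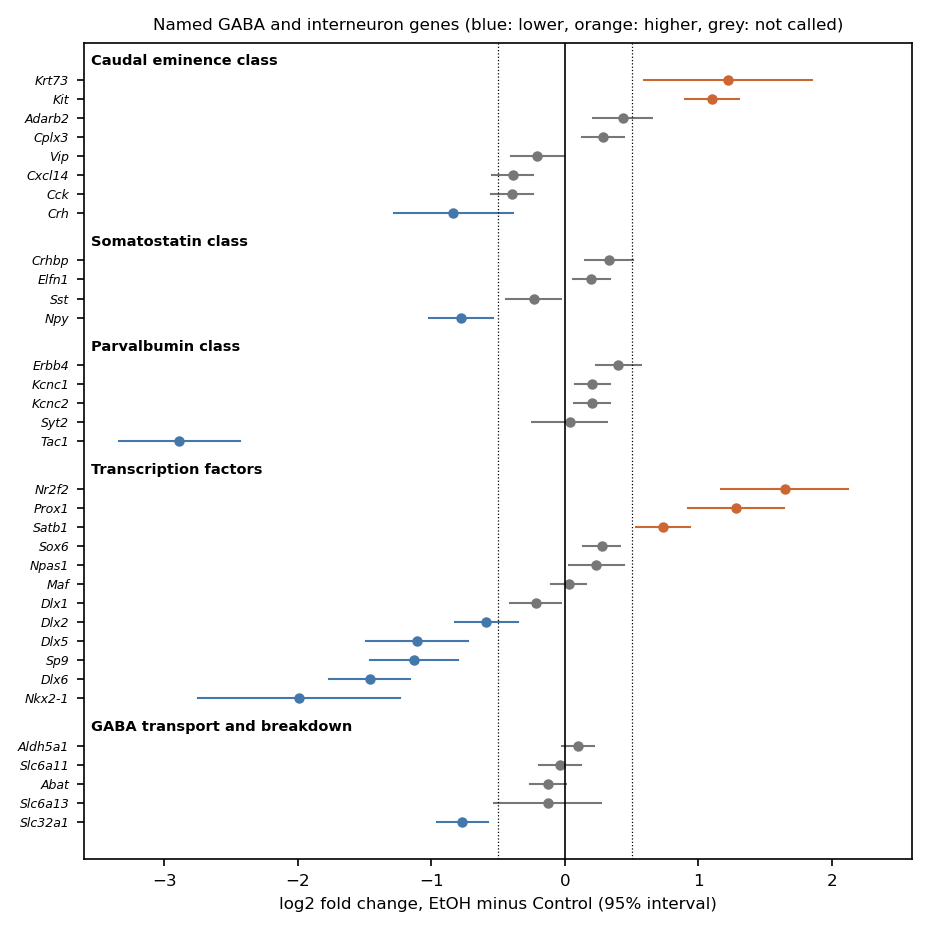
Log2 fold change (EtOH minus Control, horizontal axis) with 95% intervals of the GABA transport and breakdown genes, interneuron transcription factors and class markers named in the text, with dotted lines at 0.5 in size; blue genes are called lower, orange genes higher and grey genes neither. The longest blue displacement is that of Tac1, at -2.89, and Nr2f2, at 1.65, lies farthest to the right.

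The genes most like each member were sought by the Pearson correlation of log2 CPM over the 12 mice after the mean of each group had been subtracted, among all genes tested, and are given as a description. For Gad2 these were Ntn1 (r = 0.96), Prkar2b (0.95) and Doc2b (0.94), and for Gad1 they were Stac (0.95), Plpp4 (0.90) and Bad (0.89). For Lhx6 they were Myorg (0.88), Cbln4 (0.86) and Cacfd1 (0.86), and for Pvalb Wnt10a (0.91), Krt80 (0.91) and Nudt4 (0.91). For Lamp5 they were Myl4, Scd3 and Cpne9 (0.92 each), and for Calb2 Ush1g (0.95), Gng4 (0.93) and Med22 (0.90). For Reln they were Ctnnb1 (0.95), Gxylt2 (0.94) and Megf6 (0.94), for Htr3a Zwint (0.96), Zfp580 (0.93) and 1110051M20Rik (0.93), and for Nos1 Nup50 (0.96), Cpne7 (0.92) and Rab27a (0.92). No gene appeared in the lists of more than 1 member, and no member was among the nearest genes of another. Among these neighbours Ntn1, Wnt10a, Krt80, Myl4 and Cpne9 were called lower in the EtOH mice and Cbln4 and Cpne7 higher. Cpne7, at 45.7 CPM in the Control and 179 CPM in the EtOH mice, had the largest difference of them (log2 fold change 1.97).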

How the data were processed

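Cortex RNA of 12 mice was extracted and sequenced by BGI. The authors checked reads with FastQC 0.11.9, ran STAR against GRCm39 with its GENCODE annotation, summarised alignments per gene with featureCounts, and used DESeq2 for the group comparison. The authors deposited 1 table of expected counts per gene symbol, without normalization; 61 of 33024 symbols, none of them a member, held values that were not whole, so counts were rounded. Strand and multi-mapping settings are not given in the sources used here, so genes sharing exon bases with another gene are uncertain. Annotated exons of other genes cover 0.951% of the exon bases of Gad1, 2.03% of Lhx6, 4.71% of Reln and 4.0% of Nos1, 0% of those of the other 5 members, 20.0% of Slc32a1 and 18.3% of Nr2f2.

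Genes were kept with edgeR's filterByExpr, scaled with TMM (factors 0.982 to 1.02) and tested by quasi-likelihood in edgeR, with p adjusted by Benjamini-Hochberg over 16059 genes (R 4.3.3, edgeR 4.0.16, limma 3.58.1); a standard error is the log2 fold change divided by the square root of F. Control totals had a median of 32166774 and EtOH totals of 32947641 counts. Positions and exon lengths are from GENCODE M39 on GRCm39. The members and gene lists were chosen with earlier results of these data known. By rule, all members, the called genes of the interneuron lists and the 3 genes most like each member are named. Uncalled list genes were named after their values were seen. Libraries come from separate mice, and all 31 pairs within groups differed beyond sampling noise (chi-square of at least 7.49 times its degrees of freedom). Log2 CPM used a prior count of 2. Correlations used exact permutation tests. The tests were tested on simulated counts with known changes. Alternatives were DESeq2 1.42.0, limma voom, other scalings, filters and fold minimums, the replicate number as a block, and mice left out.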

Additional observations from a re-analysis of the deposited data

Results flagged for a closer look

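Of 40 sets of values of a group (member levels, marker sums and total counts), 4 had a mouse far from the rest, and about 2 such sets arise by chance. In total counts, Control mouse 5 had 40690223 counts (next 32356913) and EtOH mouse 1 had 42183029 (next 33313165). EtOH mouse 3 had the highest choroid plexus sum, 985 CPM (next 277 CPM), and the highest astrocyte marker sum, 1063 CPM (next 986 CPM), and it also had the lowest Lamp5 and Pvalb and the highest Nos1, Htr3a and Calb2 of the EtOH group. No member level stood apart by this measure.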

How the results depend on the processing

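The precision rests on 5 and 7 mice, and the least counted member, Htr3a, had 175 to 333 counts in a mouse, where counting error is not small beside the spread between mice. Causes of changes were not tested unless the setting itself shows them. Replicate numbers did not pair the mice (correlations -0.108 to 0.0182 over 5 numbers, 0 of 5 EtOH mice closest to their own number); with the replicate block, 690 genes were higher and 634 lower over the whole table, and the members called stayed at 2 and 2. Scaling to 10 pan-neuronal genes moved the median of all genes by 0.112; it gave 1117 genes higher over the whole table, 1 member lower (Lamp5 at -0.39 was lost, Htr3a at 0.51 was gained) and 4 class markers higher. With the fold minimum dropped, the whole table gave 1947 higher and 1863 lower calls, with 9 class markers higher and 5 lower. At a log2 fold change over 1, 242 genes were higher and 282 lower, with 0 members in either direction, 0 GABA transport or breakdown genes lower and 1 class marker lower. Leaving out each mouse in turn gave 576 to 783 genes higher and 586 to 727 lower, 2 members higher, 1 to 2 members lower, and 0 to 1 members correlated with the spiny list; Lhx6 ranged from -0.0054 (without EtOH mouse 4) to 0.073, a change of sign. Alternatives chosen after seeing the data left out the mice with over 50 CPM of olfactory bulb markers, where Calb2 changed sign to 0.063, or those with over 100 CPM of choroid plexus markers, where 397 genes were higher over the whole table, 1 member was higher, 1 lower and 1 class marker higher, and Lhx6 changed sign to -0.10. Both other tools (DESeq2 and limma voom), the scalings by upper quartile and by relative log expression, and both count filters called 2 members higher and 2 lower.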
